A study of Mus musculus with 6 samples.

Results

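The gene desert regions of P19 cells are stretches of chromatin that carried a peak of both H3K9cr and H3K9ac far from any protein-coding gene. Overlapping peaks of the 4 deposited peak lists were merged into 31127 regions, of which 22972 had a peak in all 4 lists. Of these shared regions, 1209 lay outside every protein-coding gene record of the mouse build GRCm38 and more than 50 kb from every protein-coding gene end. The regions were chosen by the presence of a peak in all 4 lists and by distance from genes, so neither is a result.

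The series profiled H3K9cr and H3K9ac, the crotonylated and acetylated forms of histone H3 lysine 9, by native chromatin immunoprecipitation, without crosslinking, and sequencing. All libraries came from undifferentiated P19 cells, an embryonal carcinoma line of the mouse grown in proliferation medium, with no treatment or genetic change named in the labels. H3K9cr and H3K9ac each had 2 libraries, called biological replicates by the series text, and the 2 input libraries were not analysed here. The labels do not say that replicates were separate cultures, so p-values measure only the spread between these libraries, which may be technical. Each mark was read with a single antibody, so the antibody and the mark cannot be told apart.

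Acetylation and crotonylation of H3K9 neutralise the charge of the lysine and lie at active promoters and enhancers. Both are written by acyltransferases such as p300, and YEATS-domain proteins bind crotonyl-lysine in preference to acetyl-lysine. Gene deserts are long intervals without coding genes, and many hold distal enhancers of developmental regulators, promoters of long noncoding RNAs (lncRNAs) and host genes of microRNAs.

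The lists held 28360 and 28345 peaks for H3K9cr and 26096 and 27474 for H3K9ac. Read depth is not given in the sources used here. Fold enrichment, the summit's coverage over the local background, and pileup, the coverage at the summit, are the authors' peak-caller values. Their scales can differ between libraries, so ranks of these values were compared across libraries in the main tests, and a fold enrichment is to be read within its own library. The fold enrichments of a region's tallest peak are given below for the first and second H3K9cr library and then the first and second H3K9ac library. Strength was expressed as the percentile of the summit pileup among the 22972 shared regions of the same library, where 0 is weakest and 100 strongest. Sites under the authors' threshold are not listed, so the lack of a peak does not show the lack of a mark. Among the desert regions, fold enrichment ranked more alike between libraries of the same replicate number than between replicates of a mark. Spearman's rho was 0.904 for the first libraries of the 2 marks and 0.923 for the second, against 0.847 for the H3K9cr replicates and 0.834 for the H3K9ac replicates (across 1209 regions of each library, a description). The pileup ranks did not show this order, with 0.952 for the H3K9cr replicates, 0.932 for the H3K9ac replicates, 0.923 for the first libraries and 0.935 for the second. Pluripotency genes checked the cells: Pou5f1, Sox2, Nanog, Lin28a, Utf1 and Sall4 had a peak at a gene end in 4 of 4 lists. Of genes that mark other cell types, Alb, Afp, Hbb-bt, Ptprc, Gfap and Myh6 had a peak in 0 lists, Krt19 in 2 and Col1a1 in 4.

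Several desert regions covered annotated starts of noncoding genes, and the sequence before these starts is shown because the starts differ widely in CpG content while all carry both marks. The windows run from 250 bases before to 50 bases after the start, come from RefSeq for GRCm38, and are printed 5′ to 3′ on the gene's strand with CpG dinucleotides in capitals. 5730522E02Rik lies at chr11:26210527-26210826 (minus strand), Jpx at chrX:103493308-103493607 (plus strand), Firre at chrX:50635272-50635571 (minus strand), Lncenc1 at chr13:97434720-97435019 (plus strand) and Gm35925 at chr13:7175701-7176000 (minus strand). 5730522E02Rik and Gm35925 belong to 2 of the 10 strongest regions, and the other genes were chosen after their values were seen.
5730522E02Rik: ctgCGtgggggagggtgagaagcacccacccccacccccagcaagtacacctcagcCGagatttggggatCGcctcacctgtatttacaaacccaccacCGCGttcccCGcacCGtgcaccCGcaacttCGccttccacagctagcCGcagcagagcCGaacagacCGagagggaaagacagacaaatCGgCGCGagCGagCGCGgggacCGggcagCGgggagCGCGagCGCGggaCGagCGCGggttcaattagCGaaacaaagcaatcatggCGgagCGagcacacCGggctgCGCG
Jpx: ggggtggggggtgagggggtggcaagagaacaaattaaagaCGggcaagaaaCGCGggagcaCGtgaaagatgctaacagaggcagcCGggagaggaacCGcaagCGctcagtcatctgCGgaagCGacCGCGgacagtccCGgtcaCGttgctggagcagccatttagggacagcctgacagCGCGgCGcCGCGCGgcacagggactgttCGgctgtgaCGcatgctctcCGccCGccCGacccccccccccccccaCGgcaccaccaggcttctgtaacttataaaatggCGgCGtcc
Firre: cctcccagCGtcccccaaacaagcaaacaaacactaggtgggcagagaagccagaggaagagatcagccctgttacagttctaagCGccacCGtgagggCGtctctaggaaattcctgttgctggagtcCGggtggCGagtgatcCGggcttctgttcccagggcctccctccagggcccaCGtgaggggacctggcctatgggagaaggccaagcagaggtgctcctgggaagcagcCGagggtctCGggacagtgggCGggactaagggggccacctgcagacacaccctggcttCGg
Lncenc1: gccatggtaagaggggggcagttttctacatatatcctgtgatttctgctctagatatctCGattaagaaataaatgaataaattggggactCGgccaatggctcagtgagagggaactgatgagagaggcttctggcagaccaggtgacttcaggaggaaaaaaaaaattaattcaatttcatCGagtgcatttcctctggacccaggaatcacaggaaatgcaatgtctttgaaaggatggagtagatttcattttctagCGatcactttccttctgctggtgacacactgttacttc
Gm35925: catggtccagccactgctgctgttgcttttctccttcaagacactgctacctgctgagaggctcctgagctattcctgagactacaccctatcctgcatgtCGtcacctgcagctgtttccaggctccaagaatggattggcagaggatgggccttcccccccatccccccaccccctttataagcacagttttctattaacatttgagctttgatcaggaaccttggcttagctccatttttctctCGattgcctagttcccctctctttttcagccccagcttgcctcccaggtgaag

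The CpG ratio, the observed number of CpG over the number expected from the C and G content, was 1.03 at 5730522E02Rik (33 CpG) and 0.863 at Jpx (27 CpG). It was 0.410 at Firre (12 CpG), 0.304 at Lncenc1 (4 CpG) and 0.106 at Gm35925 (2 CpG). The 5 windows thus ran from CpG-rich to almost free of CpG.

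Hairpins of microRNAs with known neural roles lay in other desert regions, and their mature sequences are shown because they are the products of the marked loci, although some, such as miR-9 and miR-124, are also made from other genomic copies. The sequences are from RefSeq for GRCm38, with the seed (bases 2 to 8) in capitals. No 2 of the 6 share a seed.
miR-9-5p: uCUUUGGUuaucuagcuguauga
miR-9-3p: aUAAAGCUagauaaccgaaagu
miR-129-5p: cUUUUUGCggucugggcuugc
miR-129-2-3p: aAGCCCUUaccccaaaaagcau
miR-137-3p: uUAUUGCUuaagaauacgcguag
miR-125b-5p: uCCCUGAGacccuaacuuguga

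Desert territory is the sequence outside coding genes and more than 50 kb from their ends. It was measured from the start of the first to the end of the last coding gene of each chromosome. It made up 1006.62 Mb, or 37.4% of the 2690.87 Mb of this span. Of this territory, 65.2 Mb lay on chromosome Y, which held 1 desert region. Only gene positions were used, so assembly gaps and repeats where reads cannot be placed were not removed. Desert territory held 1.20 desert regions per Mb, while the whole span held 8.54 shared regions per Mb. Of 2967 gaps over 100 kb between neighbouring coding genes, 650 (21.9%) held at least 1 desert region and 2317 held none. A further 5 regions lay beyond the first or last coding gene of a chromosome.

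The regions were denser in the shorter gaps. Gaps of 100 to 500 kb held 2.63 regions per Mb of desert (2256 gaps), gaps of 500 kb to 1 Mb 1.26 (415 gaps), gaps of 1 to 2 Mb 0.553 (212 gaps) and longer gaps 0.278 (84 gaps). The share of gaps with at least 1 region ran the other way, from 18.1% through 31.3% and 36.8% to 39.3%. Among the largest gaps, the 4542303 bp between the protocadherin genes Pcdh20 and Pcdh9 and the 4420421 bp between Olfm4 and Pcdh17 had 0 regions. The gap between Cntnap5b and Cdh20 (4277740 bp) and that between Tenm3 and Aga (3988858 bp) had 1 each.

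**Figure D1:**
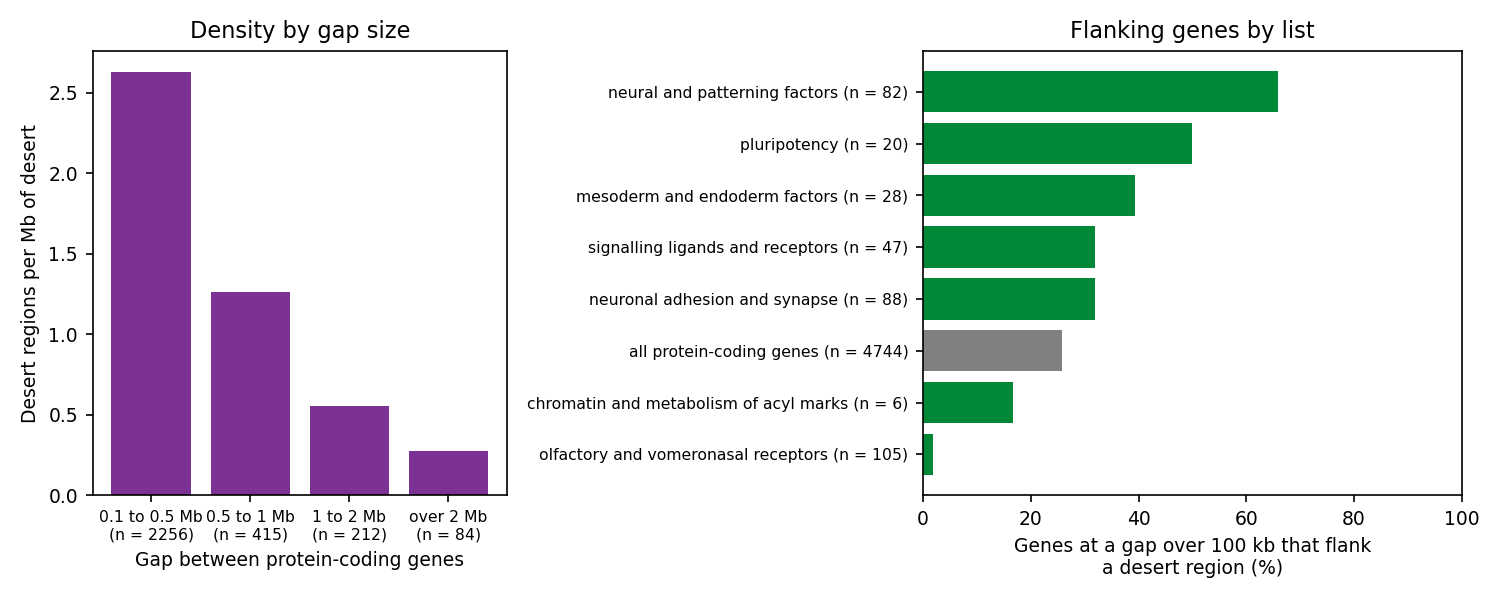
Left, desert regions per Mb of desert by the size of the gap between neighbouring protein-coding genes (n, gaps). Right, share of the genes of each list bordering a gap over 100 kb (n, genes) that flank a desert region. Density falls from 2.63 to 0.278 per Mb, and the lists range from 1.90% for olfactory and vomeronasal receptors to 65.9% for neural and patterning factors, beside 25.8% of all protein-coding genes.

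Desert regions lay a median of 99.3 kb from the nearest coding gene end, with quartiles of 68.0 and 178 kb. Of the 1209, 603 (49.9%) were beyond 100 kb, 260 beyond 200 kb, 55 beyond 500 kb and 16 beyond 1 Mb. The median strength was percentile 24.4 at 50 to 75 kb (383 regions), 24.7 at 75 to 100 kb, 23.2 at 100 to 200 kb, 19.96 at 200 to 500 kb and 17.0 beyond 500 kb (55 regions). Across the 1209 regions, distance and strength had a Spearman's rho of -0.09, a description over regions of the same libraries. The most distant region outside chromosome 18, chr5:59948454-59949148, lay 1815.22 kb from Pcdh7, a protocadherin gene. Its fold enrichments were 10.1, 8.67, 12.5 and 8.20. A stronger region, chr1:113962151-113964549, lay 1720.19 kb from Cntnap5a, a contactin-associated protein gene, with 30.7, 22.5, 19.01 and 18.4. The region at chr15:15088974-15089332 between the cadherin genes Cdh6 and Cdh9, 1639.22 kb from the nearer, was weak in every library, at 4.54, 6.37, 5.81 and 9.12.

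The limit was crossed by regions of all strengths. Just inside it, a region 50.006 kb from Zfp64 and 71.259 kb from Sall4, a pluripotency factor gene, stood at percentile 71.0, one between Hoxc4 and Smug1 at 63.8 and one between Jade2 and Cdkn2aipnl at 89.3. Just outside, regions 49924 bp from Kif2a, 49922 bp from Nap1l1 and 49920 bp from Ryk stood at 46.7, 21.5 and 11.5. The 3 regions inside were thus stronger than the 3 outside, whereas over wider bins the inner side was the weaker. The median was 26.7 for 845 shared intergenic regions at 25 to 50 kb and 24.4 for 383 desert regions at 50 to 75 kb.

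Desert regions were weaker and narrower than the other shared regions away from gene ends. Their median percentile was 24.2 and 24.3 in the H3K9cr libraries and 23.0 and 22.9 in the H3K9ac libraries. The median fold enrichment was 12.3, 11.7, 8.91 and 11.9. Intergenic shared regions 5 to 50 kb from a gene (2812 regions) had median percentiles of 27.9, 27.7, 27.0 and 26.7. The desert median was lower in 4 of 4 libraries, with a difference of -3.75 ± 0.272 percentile points and of -35.75 bp ± 23.6 in the length covered by peaks (SD, n = 4). Against the 3455 shared regions inside coding genes and over 5 kb from their ends, the differences were -5.58 ± 0.272 points and -172 bp ± 7.62, again lower in 4 of 4 libraries. For each of these 4 differences the exact two-sided sign-flip permutation test over the libraries gave p = 0.13, the smallest value that 4 libraries allow. Only 12.4% of desert regions (150) lay above the median of all shared regions in mean percentile.

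**Figure D2:**
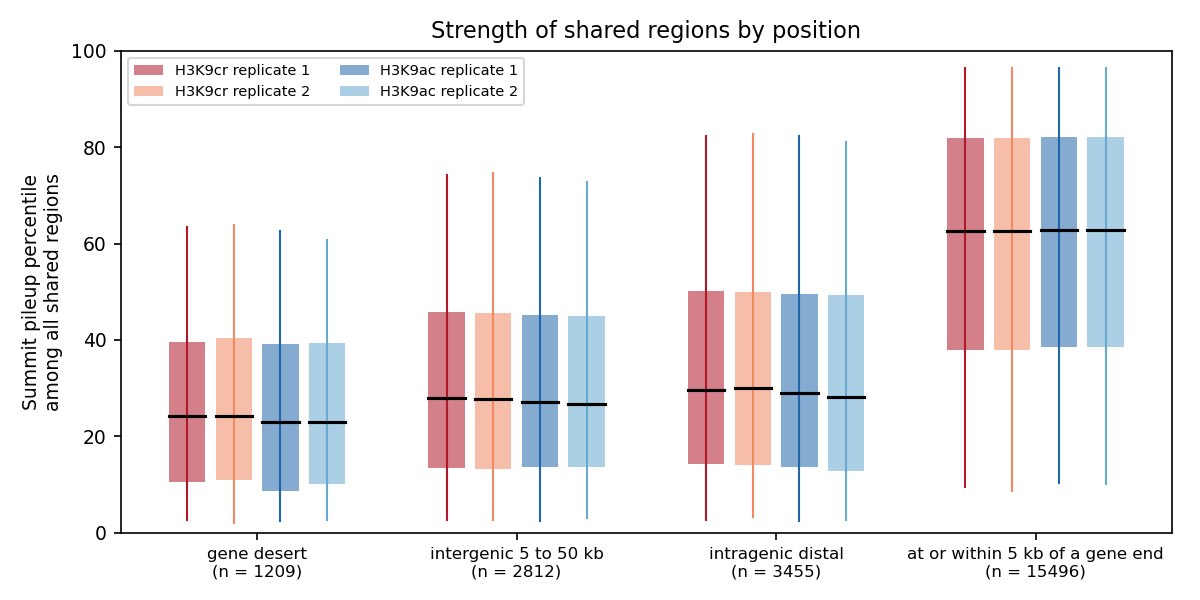
Percentile of the summit pileup among all shared regions of the same library, for 4 classes of position (n, regions) and the 4 libraries. Boxes span the quartiles, black lines are medians and thin lines run from the 5th to the 95th percentile of regions. Desert medians lie between 22.9 and 24.3, below the intergenic (26.7 to 27.9) and intragenic (28.2 to 29.9) classes in every library.

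Counting also regions that missed a list, 2223 merged regions lay in the deserts, of which 444, 290, 280 and 1209 had a peak in 1, 2, 3 and 4 lists. The share in all 4 lists was 54.4% in the deserts, 59.1% at 5 to 50 kb, 56.4% for intragenic distal regions and 86.0% within 5 kb of a gene end. Desert regions with a peak in both H3K9cr lists and neither H3K9ac list numbered 118 (5.31%), beside 2.57% of all merged regions, 4.59% of intragenic distal ones and 3.97% of those at 5 to 50 kb. The reverse was seen at 8 (0.360%), beside 0.280% of all, 0.359% and 0.546%. The libraries placed their summits close together within the shared desert regions: the median distance between 2 libraries was 32 to 40 bp, and 84.7% to 87.4% of summits lay within 200 bp of each other.

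The strongest desert regions exceeded the median shared region at a gene end in pileup percentile, though in fold enrichment not all did so in every library. The top region, chr11:26209518-26211293 (1776 bp), lay between Bcl11a, a zinc-finger repressor gene, and Fancl, a DNA-repair ubiquitin ligase gene, and held the CpG-rich start of the lncRNA 5730522E02Rik printed above. Its fold enrichments were 108, 77.2, 85.7 and 80.3, and its percentiles lay between 90.8 and 93.0 in all 4 libraries. The shared regions at or within 5 kb of a gene end had median fold enrichments of 42.8, 41.9, 34.2 and 47.1. Their median percentiles were 62.6, 62.6, 62.7 and 62.9. Summits at 5730522E02Rik lay 120 to 133 bp before its start.

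The region chr4:101353718-101358040 between Jak1 and Ak4 held the start of the lncRNA E130102H24Rik, whose window had 47 CpG and a CpG ratio of 1.07. Its fold enrichments were 117, 114, 93.1 and 76.7 and its percentiles 92.3, 91.0, 92.1 and 90.3, which overlapped between the marks. The other strong starts were Gm35925, chr13:7172621-7176378, 523.561 kb from Pfkp (95.6, 76.6, 64.7 and 93.4), and A630089N07Rik, chr16:98081032-98083420, 64.276 kb from B230307C23Rik (90.45, 93.3, 79.4 and 100.7). Gm35925 is the CpG-poor start printed above, and its summits lay 401 to 468 bp after the start, outside the printed window.

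Other regions among the 10 strongest held no start. A region between Jade2, a gene for a subunit of an acetyltransferase complex, and Cdkn2aipnl at chr11:51915443-51917499 overlapped no noncoding record, with 53.2, 54.98, 45.1 and 44.2. The region chr7:73614843-73619609 near Chd2, a chromatin remodeller gene, had 84.3, 105, 51.0 and 96.4. The region chr16:50527953-50530986 between Bbx and Ccdc54, within the record of the lncRNA G730013B05Rik, had 105, 102, 82.9 and 113. At chr10:97312642-97314393, 165.107 kb from Dcn, the gene of the matrix proteoglycan decorin, the values were 53.0 and 99.6 for H3K9cr and 54.9 and 96.1 for H3K9ac. Its percentiles were 83.1 and 86.2 for H3K9cr and 81.8 and 80.8 for H3K9ac. The region chr3:17784550-17788297, within Gm30340, had 52.2, 93.5, 32.9 and 60.3.

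Of all 1209 desert regions, 423 (35.0%) overlapped a noncoding gene record, 401 of them an lncRNA, and 786 overlapped none. A noncoding start lay in 120 (9.93%). These 120 supplied 4 of the 10, 15 of the 50 and 30 of the 100 strongest regions. The following split was made after values were seen and is given with no test. Regions with a start had median percentiles of 38.5, 39.1, 37.9 and 38.9, regions within a record 24.9, 24.8, 23.0 and 21.5, and regions with no record 22.8, 22.6, 21.8 and 22.2. Regions with a start were stronger than regions with no record by 16.3 ± 0.435 points and wider by 467 bp ± 46.1 (SD, n = 4), in 4 of 4 libraries.

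RefSeq start windows allowed the reverse count, from starts to peaks. Starts were counted singly, also where those of the same gene lay a few bases apart and their windows overlapped. Of 3379 noncoding starts (2809 genes) in desert territory, 163 (4.82%, from 131 genes) lay under a peak in all 4 lists. Their median CpG ratio was 0.415 and GC content 53.7%, against 0.193 and 45.3% at the 3195 desert starts with no peak and 0.384 and 52.7% at all 32851 starts. A CpG ratio above 0.6 was found at 135 desert starts, of which 39 (28.9%) had a peak in all 4 lists, and 124 of the 3244 other starts (3.82%) did. Within the 120 regions with a start, the 33 with a ratio above 0.6 had a median percentile of 49.3 and the other 87 had 35.1, while Spearman's rho over all 120 was 0.08.

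**Figure D3:**
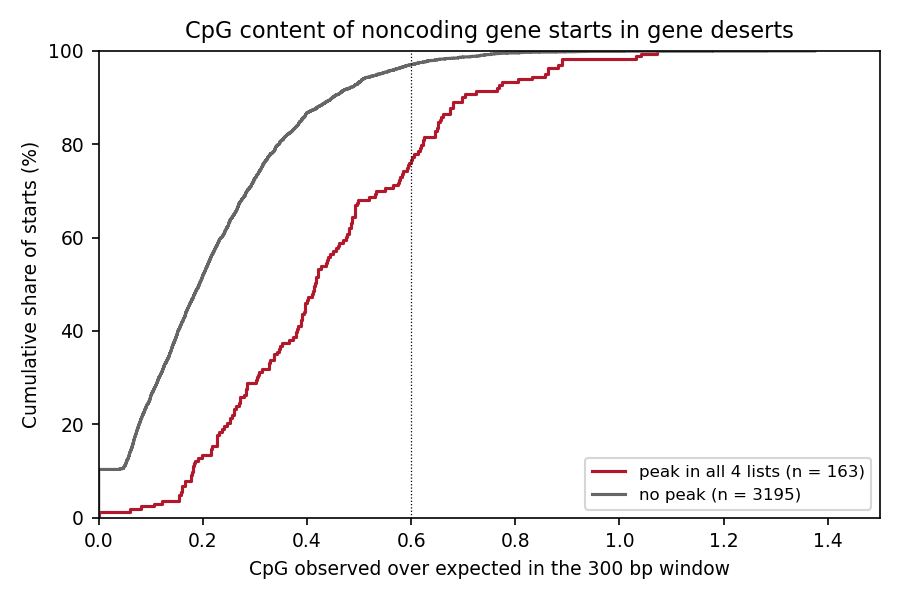
Cumulative share of noncoding gene starts in desert territory by CpG ratio of the window from 250 bases before to 50 after the start, for starts with a peak in all 4 lists (n = 163) and with no peak (n = 3195). The dotted line marks 0.6. Medians are 0.415 and 0.193.

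Short motifs were counted in the same windows on both strands. The E-box CACGTG stood in 9.20% of the 163 starts, 5.35% of starts with no peak and 7.15% of all starts, and it was present at Jpx and Firre. TATAAA stood in 13.5%, 20.6% and 13.6%, and was present at Jpx and Gm35925. The Oct motif ATGCAAAT stood in 2.45%, 2.57% and 1.74%, and the Sox motif AACAAAG in 8.59%, 8.86% and 5.85%, including 5730522E02Rik. Matches of different motifs were counted apart even where they overlapped, and a match describes letters, not a bound site.

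Named lncRNAs of pluripotent cells and of the X chromosome were among the marked starts. Firre, an X-linked lncRNA of nuclear organisation, lay at chrX:50631453-50636122 with 64.3, 85.7, 70.9 and 89.3, and percentiles of 70.0, 80.8, 82.0 and 78.1 that overlapped between the marks. Jpx, an lncRNA of the X-inactivation centre, lay at chrX:103492434-103495020 with 64.0, 67.05, 51.9 and 67.04, and summits 315 to 346 bp after the start in all 4 libraries. Lncenc1, an lncRNA of embryonic stem cells, lay at chr13:97434175-97437117 with 35.7, 57.5, 22.0 and 44.2. Its summits were 641 to 827 bp after the start, so the CpG-poor window printed above does not hold the summit. The printed windows of Jpx and of Firre, with summits 353 to 360 bp after its start, do not hold theirs either.

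Platr22, a pluripotency-associated transcript 65363 bp from Zfp281, had 29.5, 41.5, 27.2 and 34.3. Tunar, an lncRNA gene near Tcl1 that takes part in neural differentiation, had 13.7, 35.8, 11.1 and 46.8. Its pileup percentiles were 52.9, 53.2, 53.6 and 57.0. Lncpint, a p53-regulated lncRNA, had 54.6, 44.6, 43.8 and 45.2.

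The desert region with the largest covered length, chr14:61680177-61688098 (7922 bp), covered the start of Dleu2, the host gene of a miR-15 and miR-16 cluster, and carried peaks over 7698, 7833, 7865 and 7887 bp. Its fold enrichments were 49.8, 50.1, 41.8 and 57.9. The region with the next largest covered length (a mean of 5182.5 bp over the libraries), chr13:83728962-83734206, lay 61.883 kb from Mef2c, a muscle and neuronal transcription factor gene, at a start of the lncRNA C130071C03Rik, with 72.3, 51.2, 51.0 and 68.7. The region chr1:14503841-14509400 near Eya1, a developmental phosphatase gene, overlapped no noncoding record and had 21.0, 39.2, 23.6 and 25.8. The other regions among the 5 with the largest covered length held Mir124a-1 and Mir129-2.

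MicroRNA records lay in 6 desert regions, and the neural microRNAs differed widely in strength. Mir124a-2 lay at the edge of chr3:17793232-17795696, with 57.2, 30.8, 49.4 and 33.5, and Mir124a-1 in chr14:64586556-64591930, with 32.6, 25.8, 17.5 and 24.7. Mir125b-1, in the lncRNA Mir100hg at chr9:41579451-41582281, had 32.0, 28.5, 27.5 and 26.5, with percentiles from 41.0 to 51.0. Mir129-2, in Mir670hg at chr2:94240219-94245767, had 12.1, 24.4, 16.2 and 30.2, with percentiles from 45.2 to 49.8.

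Mir9-2, in C130071C03Rik at chr13:83737167-83740182, had 12.7, 10.9, 13.6 and 13.0. Mir137, at chr3:118433613-118435326, was lowest at 8.65, 7.12, 4.94 and 12.1. The mean percentiles ran from 72.8 for Mir124a-2 through 48.5, 47.4 and 46.4 for Mir124a-1, Mir129-2 and Mir125b-1 to 24.6 for Mir9-2 and 20.1 for Mir137.

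**Figure D4:**
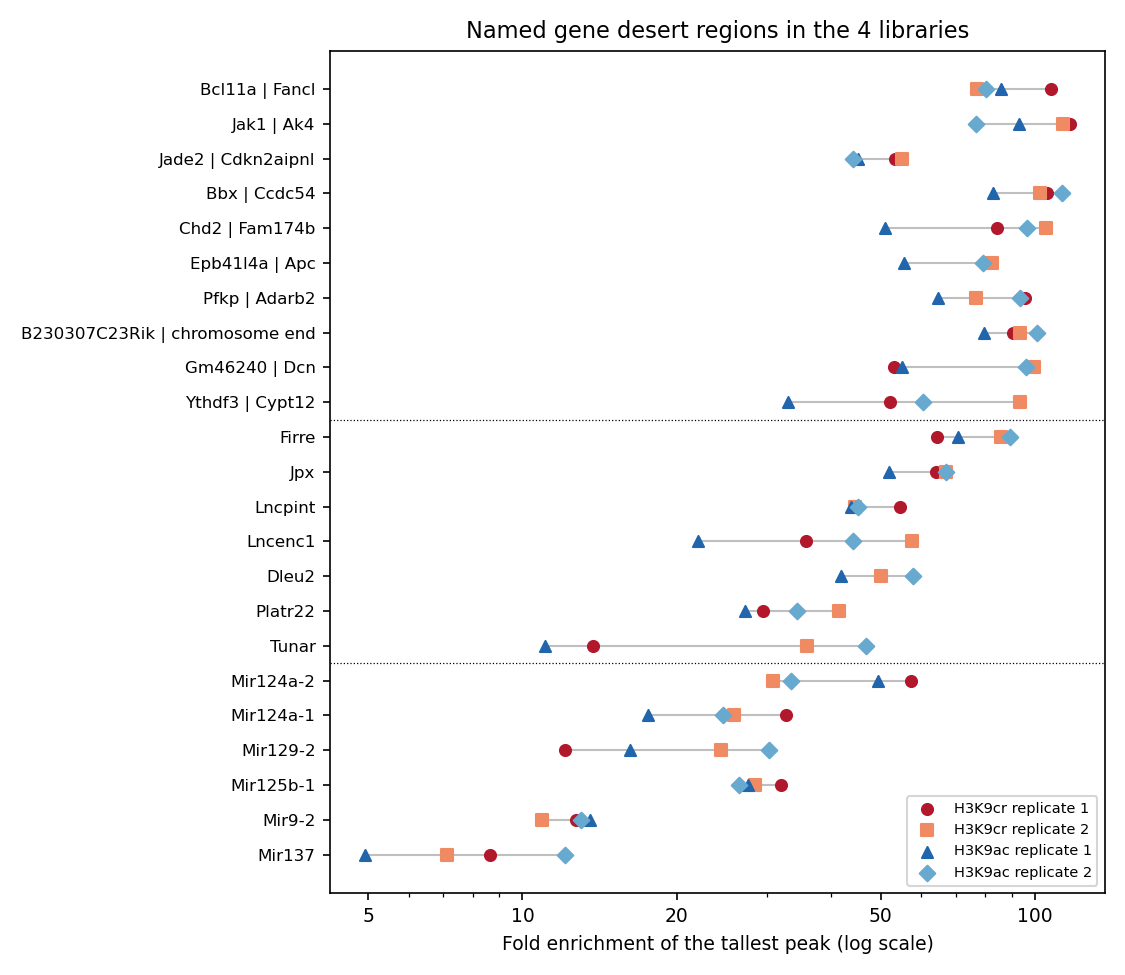
Fold enrichment of the tallest peak (log axis) in the 4 libraries for the 10 strongest desert regions, named by their flanking genes (top), regions with the start of a named lncRNA (middle) and regions with a microRNA (bottom). Points are single libraries and grey lines their range. Tunar spans 11.1 to 46.8 and Mir125b-1 26.5 to 32.0, on scales that can differ between libraries.

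Desert regions were partly grouped. Linking regions at most 50 kb apart gave 880 groups, of which 678 were single regions (56.1% of all regions), 137 were pairs and 65 held 3 or more (257 regions, 21.3%). A group between Septin9, a cytoskeletal GTPase gene, and Tnrc6c, a gene of microRNA silencing, held 10 regions in 113.281 kb, with mean percentiles of 2.10 to 55.3. A group between Spring1 and Med13l, a Mediator subunit gene, held 10 in 160.558 kb, with 7.51 to 66.96. The group between Cstad and 1700001O22Rik held 9 in 67.483 kb, with 6.64 to 79.8. Strong and weak regions thus lay side by side in each of these 3 groups, those with the most regions.

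Counted by gap, the interval between Mn1 and Cryba4 held the most regions, 16, of which 13 were nearer to Mn1, a transcriptional coregulator gene. They were mostly weak, with a median percentile of 10.1 and a maximum of 46.8. The strongest, chr5:111508656-111509864, had 16.0, 27.8, 15.8 and 35.0, and the farthest of the 13 from Mn1, chr5:111836365-111837146, had 5.50, 3.43, 3.67 and 3.91. The interval between Rragc and Pou3f1, a neural POU factor gene, held 13 regions with a median of 26.3 and a maximum of 59.1. Near Mef2c, 6 regions followed each other, from 53.523 to 77.379 kb from the gene, and their mean percentiles ran from 6.65 to 72.3.

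**Figure D5:**
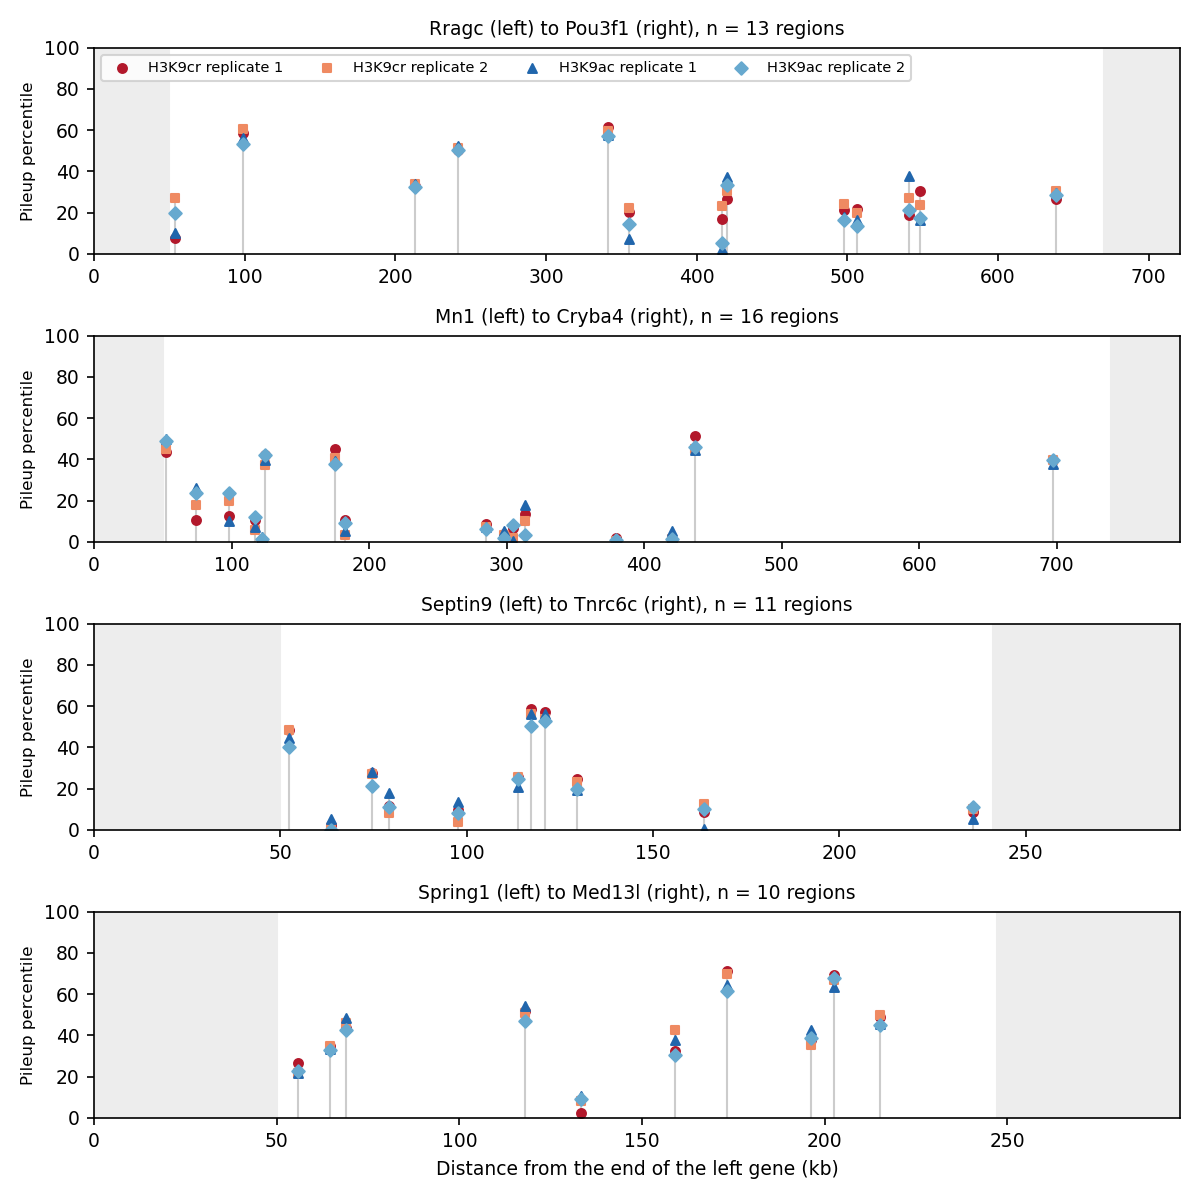
Desert regions in 4 gaps, by distance from the end of the left coding gene (kb) and pileup percentile in each library. Grey marks sequence within 50 kb of a coding gene. The Mn1 gap holds 16 mostly weak regions, while the Spring1 gap holds 10 with mean percentiles of 7.51 to 66.96.

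Flanking genes were counted by list. Of the 4744 coding genes that border a gap over 100 kb, 1223 (25.8%) flanked at least 1 desert region. The share was 54 of 82 (65.9%) for a list of neural and patterning factors, 10 of 20 (50%) for pluripotency genes, and 11 of 28 (39.3%) for mesoderm and endoderm factors. Signalling ligands and receptors had 15 of 47 (31.9%) and genes of neuronal adhesion and synapse 28 of 88 (31.8%). Genes of the chromatin and metabolism of acyl marks had 1 of 6 (16.7%), and olfactory and vomeronasal receptors 2 of 105 (1.90%). These lists were chosen with earlier results known, and their genes share gaps, so the shares are descriptions.

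The nearest coding gene was 1 of 764 genes, and 506 of these were nearest to 1 region only. Neural and patterning factors were nearest to 83 regions (6.87% of desert regions, against 3.02% of those at 5 to 50 kb) and pluripotency genes to 29 (2.399% against 1.10%). The median percentile of these regions was 23.1 and 22.1, beside 23.7 for all desert regions. Regions near genes of both lists were thus about as strong as desert regions at large. The 83 regions were nearest to 42 genes of the neural list and the 29 to only 8 genes of the pluripotency list. That list here includes Pou3f1, called a neural POU factor gene above, which alone was nearest to 7 regions. Genes of neuronal adhesion and synapse were nearest to 21 regions (1.74% against 0.284%), with a lower median of 15.8. The median was 24.3 for mesoderm and endoderm factors (16 regions) and 28.6 for signalling ligands and receptors (14 regions). It was 74.9 for olfactory and vomeronasal receptors (3 regions) and 50.6 for the chromatin and metabolism of acyl marks (1 region).

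Among pluripotency genes, a region 117.554 kb from Klf4, a reprogramming factor gene, was strong in every library: chr4:55650029-55652450 had 88.6, 86.1, 64.9 and 96.8. A region 260.828 kb from Nr5a2, a nuclear receptor gene, at chr1:137221276-137222381 had 26.0, 20.4, 17.8 and 22.2. A region 84.105 kb from Otx2, a gene of the exit from naive pluripotency and of the forebrain, at chr14:48751749-48754900 had 12.03, 12.8, 8.98 and 9.77.

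The sole desert region within 200 kb of Sox2, a core pluripotency and neural factor gene, was chr3:34795157-34796195, 142.696 kb from its end. It had 6.40, 12.2, 7.80 and 12.8, with percentiles of 16.2, 20.4, 24.0 and 20.7. The Sox2 region ranked below the desert median in both H3K9cr libraries and the second H3K9ac library, and slightly above it in the first H3K9ac library. It ranked below the Klf4 region in all 4 libraries. Both H3K9ac percentiles lay above both H3K9cr ones with the nearest pair at 20.7 and 20.4.

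Regions near neural factors included chr13:78427031-78428556, 228.158 kb from the nuclear receptor gene Nr2f1, with 52.0, 55.4, 36.8 and 55.6. Hes1, a Notch target gene, had a region 118.576 kb away at chr16:29945457-29946781 with 30.3, 36.9, 35.7 and 39.8. The region chr8:92132679-92135090 between the homeobox genes Irx3 and Irx5 had 58.5, 53.6, 35.3 and 43.5. Its percentiles were 66.5 and 64.5 for H3K9cr and 58.2 and 54.99 for H3K9ac, without overlap. At Hes1 they were 62.6 and 61.6 against 60.4 and 60.8, also without overlap but closer.

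Among signalling genes, a region 52.961 kb from Wnt7b, a Wnt ligand gene, at chr15:85634782-85635643 had 67.2, 61.7, 46.9 and 76.5. One 118.406 kb from Dll1, a Notch ligand gene, had 30.4, 22.3, 18.3 and 21.8. Among lineage factors, regions near Sox17, an endoderm factor gene, and Eomes, a mesendoderm factor gene, had mean percentiles of 49.8 and 48.4. Of the acyl list, a single region lay nearest to a member, 120.65 kb from Mllt3, whose YEATS-domain protein binds acetylated and crotonylated lysine. It had 31.5, 26.7, 22.1 and 38.6.

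The comparison of the marks asked whether desert regions carried relatively more H3K9cr or H3K9ac. The share of desert peaks was counted over all peaks of each list, also those outside the shared regions. The other measures were taken over regions that by the rule had a peak of both. Desert peaks made up 6.43% and 6.61% of the H3K9cr lists and 5.59% and 6.11% of the H3K9ac lists. Both H3K9cr libraries were higher, at 6.52% ± 0.127 against 5.85% ± 0.365 (SD, n = 2 each; exact two-sided permutation p = 0.33, the smallest possible). The difference of 0.669 percentage points was 0.366 with equal numbers of peaks per library and 0.410 without the first H3K9ac library. The median percentile of the shared desert regions averaged 24.3 ± 0.0616 over the H3K9cr libraries and 22.9 ± 0.0477 over the H3K9ac libraries (SD, n = 2 each; exact permutation p = 0.33). The median length under peaks was 893 and 927 bp in the H3K9cr libraries, above the 703 and 841 bp in those of H3K9ac, or 910 bp ± 24.0 against 772 bp ± 97.6 (SD, n = 2 each; exact permutation p = 0.33). In each of these measures the libraries of the marks did not overlap, but 2 against 2 libraries cannot reach 0.05. The H3K9ac lists also held fewer peaks. Over all shared regions, median covered length was also greater for H3K9cr, at 1519 and 1551.5 bp against 1374 and 1493 bp. It was 1060 and 1106 against 881 and 1005 bp for intragenic distal regions. At 5 to 50 kb it was 916 and 937 against 765 and 889 bp. Both classes also had higher median percentiles for H3K9cr, whereas regions within 5 kb of a gene end did not. In length and percentile, greater values for H3K9cr were thus not particular to the deserts.

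Region by region, no difference between the marks passed the threshold. With limma on normal scores of the pileup rank over all 22972 shared regions, 0 had an adjusted p under 0.05 (0% of all in either direction), and the smallest was 0.466. At an unadjusted p under 0.05, 100 desert regions (8.27%) were higher for H3K9cr, beside 4.08% of all shared regions, and 59 (4.88%) were higher for H3K9ac, beside 3.52%. The libraries of the marks did not overlap, with H3K9cr higher, at 329 desert regions (27.2%), beside 19.1% of all, and with H3K9ac higher at 179 (14.8%), beside 20.4% of all. H3K9cr had the higher mean score at 59.1% of desert regions, 54.4% of regions at 5 to 50 kb, 54.7% of intragenic distal regions and 44.5% of regions within 5 kb of a gene end. The median absolute percentile difference over the desert regions was 2.99 between the means of the marks. It was 3.17 between replicates of H3K9cr and 3.58 between those of H3K9ac. A mean over libraries varies less than a single library. These values therefore do not show whether the marks differed more or less than replicates did.

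Covered length, centred on each library's median, gave 0 adjusted calls by limma as well (0% of all in either direction), with a smallest adjusted p of 0.235. At an unadjusted p under 0.05, 98 desert regions were longer for H3K9cr, beside 3.72% of all, and 32 were longer for H3K9ac, beside 1.41%. Non-overlapping libraries were found at 259 desert regions (21.4%) with H3K9cr longer, beside 13.2% of all, and at 189 (15.6%) with H3K9ac longer, beside 23.6%. Without centring these counts were 470 and 61 of 1209 desert regions, beside 7925 and 1033 of all 22972 shared regions. H3K9cr was then longer at 79.4% of desert regions, near the 77.7% of all shared regions. The desert regions at an unadjusted p under 0.05 without centring were 141 and 13, beside 6.06% and 0.457% of all.

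Other scales and the replicate number as a block also gave 0 adjusted calls by limma. At an unadjusted p under 0.05, log2 pileup gave 168 desert regions with H3K9cr higher, beside 5.68% of all, and 35 with H3K9ac higher, beside 2.81%. Ranked fold enrichment gave 36, beside 1.25%, and 13, beside 0.858%. With the block it gave 79, beside 3.17%, and 53, beside 2.73%. The block gave 109, beside 4.10%, and 65, beside 3.57%, for pileup rank, and 118, beside 4.42%, and 37, beside 1.41%, for covered length. The desert counts are out of 1209 regions. In each of these fits the number with H3K9cr higher was the larger, among desert regions and among all shared regions alike.

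The regions with the smallest limma p were mostly weak in both directions. They were picked on the pileup ranks, so their values are given as a description. Near Bcor, the gene of a Polycomb-associated corepressor, chrX:11801481-11802148 had percentiles of 7.53 and 5.92 for H3K9cr and 0.616 and 0.788 for H3K9ac, and a score difference of 0.96 ± 0.0817 (SE; limma adjusted p = 0.466). Near Col8a1, a collagen gene, chr16:57857312-57859389 had percentiles of 33.6 and 38.3 against 12.1 and 11.1. Near Grin2a, a glutamate receptor gene, chr16:9280477-9281719 had percentiles of 14.4 and 23.2 against 1.45 and 1.25.

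The reverse was seen between Irf8 and Foxf1, at chr8:120883298-120883697, with percentiles of 7.53 and 8.76 for H3K9cr and 21.8 and 17.4 for H3K9ac (score difference -0.54 ± 0.0878, SE; limma adjusted p = 0.477). Near Acan, the aggrecan gene, chr7:78990468-78990858 had percentiles of 0.0849 and 0.810 against 10.4 and 11.1. Near Chd7, a chromatin remodeller gene, chr4:8954272-8955108 had percentiles of 1.90 and 1.56 against 5.46 and 4.31.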

How the data were processed

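H3K9cr and H3K9ac were profiled in 2 libraries each, and the authors deposited 1 peak list per library. Reads were processed with Bowtie2 2.4.1 and MACS2 2.2.7.1 on GRCm38, the tools and build named per the submitters' processing notes. Per the file headers, each row gives the position, the summit, the pileup (coverage signal at the summit), the -log10 p-value and -log10 q-value and the fold enrichment, a ratio to local background. The smallest deposited -log10 q was 2.02 to 2.06. Peaks overlapping by at least 1 bp were merged. Gene records (21883 protein-coding and 28056 others) and promoter and microRNA sequences came from RefSeq for GRCm38.p6. Distance ran from the edge of a region to the nearest end of a coding record. A region's value in a library is that of its highest peak.

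Marks were compared with limma 3.58.1 (R 4.3.3) over all shared regions, with Benjamini-Hochberg adjustment, and other values with exact permutation tests in Python 3.11.15 (numpy 2.4.6, pandas 2.3.3, scipy 1.17.1). The scripts were tested on simulated data. The planned sequence count around region centres was replaced by the promoter windows, since no genome was used here. Named regions are the 10 strongest, 5 farthest, 5 with the largest covered length, up to 5 per direction by limma p, 3 on either side of the limit, the 3 groups with the most regions, any within 200 kb of Sox2, and up to 4 per gene list, with up to 10 flanking genes. Some of these are not reported here. Members and lists were chosen with earlier results of these data known. Alternatives changed the threshold, the merging, the number of peaks, the distance limit, the records that bound a desert, the peak value, the scale, the centring, the replicate block and the libraries included. A blocked fit of fold enrichment was added after seeing the data.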

Additional observations from a re-analysis of the deposited data

How the results depend on the processing

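The number of desert regions followed the definition of a desert. It was 2054 beyond 25 kb, 603 beyond 100 kb and 183 when every gene record of any type had to be more than 50 kb away. It stayed between 1077 and 1207 with peaks of -log10 q of at least 5, equal numbers of peaks or other merging, and ranged from 1233 to 1381 when 1 library was left out. Without 1 library, the H3K9cr minus H3K9ac difference ranged from 0.410 to 0.927 percentage points for the share of desert peaks, from 0.954 to 1.37 percentile points for the median strength and from 67 to 200 bp for the median covered length. With equal numbers of peaks the share difference was 0.366 against 0.669 points, and beyond 100 kb the strength difference was 2.61 against 1.35. The covered length difference was 138 bp with all libraries, and it was 67 bp without the first H3K9ac library. Without 1 library, the desert median stayed below that of intergenic regions, by -4.20 to -3.63 points and -45.5 to -35 bp. It stayed below that of intragenic distal regions by -5.32 to -4.52 points and -172.333 to -136 bp. Over all alternatives the ranges were -5.38 to -3.61 points and -68 to -33.6 bp against intergenic regions. Against intragenic distal regions they were -7.21 to -4.52 points and -204 to -136 bp. The limma counts of differing desert regions were 0 in every alternative, and from 0 to 0 without 1 library. With the replicate number as a block the count was 0 for pileup and 0 for covered length, with 109 and 65 desert regions (H3K9cr and H3K9ac higher) at an unadjusted p under 0.05 for pileup (4.10% and 3.57% of all shared regions) and 118 and 37 for length (4.42% and 1.41%). Without the block these were 100 and 59, and 98 and 32. Libraries with the same number deviated together in fold enrichment (r = 0.526 over the desert regions) but little in pileup (r = 0.05), the value of the main test. No label says what the number marks. At that level ranked fold enrichment gave 36 and 13 desert regions (1.25% and 0.858% of all) without the block and, in a fit added after seeing the data, 79 and 53 (3.17% and 2.73%) with it. The log2 pileup, which compares values and not ranks, gave 168 and 35 (5.68% and 2.81%). No result changed direction. Read depth is unknown here, and weak sites absent from a list could not be weighed.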
